A study of Mus musculus with 6 samples.

Results

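Long intergenic noncoding RNAs (lincRNAs) are transcripts from genes that lie between protein-coding genes and carry no long conserved reading frame. The expressed lincRNAs of mouse colon were chosen by biotype and by level, as rows of the deposited gene table with the biotype lincRNA whose FPKM, a level per gene length and library size, averaged 1 or more across the 6 libraries. They number 169 of 5559 lincRNA genes and of 54532 genes in all. RNA came from whole colons of C57BL/6 mice on postnatal day 56. It was sequenced in 3 libraries labelled wild type (WT) and 3 labelled IL10-/-, a genotype without the anti-inflammatory cytokine interleukin 10 that is widely used as a colitis model. The labels name no knockout allele and no treatment, and nothing in them ties each library to a mouse of its own; the p-values below therefore rest on the variation among 3 libraries a label, which may be technical.

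The Il10 gene itself had FPKM levels of 0.757, 0.173 and 0.177 in the libraries labelled WT and of 13.8, 10.6 and 14.5 in those labelled knockout. The targeted gene was thus higher where the label names its loss, and a value over the whole gene cannot show which part was read. Groups are therefore called by their labels, and each direction below is that of the libraries labelled knockout against those labelled WT. Recovered reads ran from 13107941 to 15797928 per library, of which mitochondrial genes took 8.61% to 43.4%, with the maximum in WT-labelled library 3. The 6 libraries did not group by label: Pearson's r over the lincRNAs ran from 0.832 to 0.917 in knockout-labelled pairs and from 0.427 to 0.740 in WT-labelled pairs (log2 values across genes, which are not independent replicates), and WT-labelled library 1 stood at 0.826 to 0.834 with the 3 knockout-labelled libraries. Summed levels of marker genes also set single WT-labelled libraries apart. Over 12 smooth muscle markers the sum was 1617, 1458 and 9966 FPKM in WT-labelled libraries 1 to 3 and 200 to 1131 in the others, and all 12 were highest in WT-labelled library 3. Over 13 epithelial markers it was 5508, 46324 and 2945 against 8840 to 18360, and 9 of 13 were highest in WT-labelled library 2. Over 8 markers of goblet cells, which are also epithelial, it was 5011, 2402 and 1932 against 4615 to 8156. Of these 8, 0 were highest in WT-labelled library 2. Each defining marker of these lists was above 0 in at least 1 library of each label. In bulk colon RNA, fewer cells of a type and less RNA per cell cannot be told apart.

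LincRNAs work in several known ways. Some build nuclear bodies, as Neat1 does for paraspeckles; some are precursors whose introns or exons yield small nucleolar RNAs or microRNAs; others arise beside a coding gene and share its regulatory DNA. In the gut, lincRNAs of immune cells are induced by inflammatory signals, and many others follow the cell type and the position along the body axis. Their levels are in general lower than those of messenger RNAs.

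The 169 lincRNAs were a small and mostly faint part of the colon transcriptome. Of the 5559 lincRNA genes in the table, 3730 had no read in any library and 1660 had reads but a mean FPKM under 1, which leaves 3.04%. The mean FPKM over the 6 libraries was 1.99 at the median lincRNA and 5.76 at the median of 11224 protein-coding genes that passed the same minimum. Only 20 lincRNAs reached a mean of 10 FPKM and 86 stayed under 2. Just inside the minimum lay Gm5914, Gm35028 and 9130604C24Rik at 1.01 each, and just outside it 2700046G09Rik at 0.994, 0610043K17Rik at 0.992 and Gm34030 at 0.987. A total of 152 were above 0 in all 6 libraries, while 13 had a WT-labelled mean under 1 and 33 a knockout-labelled mean under 1. Such lincRNAs passed the minimum through the other label, so a difference is built into them.

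By structure the set was short and simple. The deposited gene length was 1328 bases at the median, from 154 to 20771 for Neat1, and 26 lincRNAs were under 500 bases. In the GENCODE M21 annotation (GRCm38), which holds all 169, 33 had 1 exon block and 53 had 2. Predicted genes with Gm symbols made up 88 and RIKEN clones 53. M21 types 165 of them as lincRNA; the 4 exceptions are 6330403K07Rik, typed as protein-coding, 1110020A21Rik, typed as a bidirectional promoter lncRNA, and Gm1976 and 4833418N02Rik, typed as processed transcripts. Exons of 13 overlapped those of another gene that reached the minimum. The strand setting of the counting is not given in the sources used here, so reads of such pairs cannot be assigned to one strand; among the lincRNAs named below this touches Gm20186, which overlaps the lincRNA Gm26809, and Gm5914, which overlaps Ctcf.

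No lincRNA passed the test between labels. In limma on log2(FPKM + 1) over the 12668 genes that reach the same minimum, 0 of 169 lincRNAs had a Benjamini-Hochberg adjusted p under 0.05, beside 23 of all genes (0.182%), which were all higher in the libraries labelled knockout. None of the 12668 genes (0%) was called lower. The lowest adjusted p of a lincRNA was 0.183. At an unadjusted p under 0.05 there were 19 lincRNAs (11.2%), 10 higher and 9 lower, beside 10.2% of all genes tested. The 3 values of each label did not overlap for 30 lincRNAs (17.8%), 13 higher and 17 lower, beside 16.7% of all genes (8.84% higher and 7.89% lower). These shares lie near the background. The median log2 fold change of the lincRNAs was -0.03, with quartiles of -0.49 and 0.30, beside 0.04 over all genes, and 25 (14.8%) moved by 1 or more in size beside 11% of all genes.

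**Figure D1:**
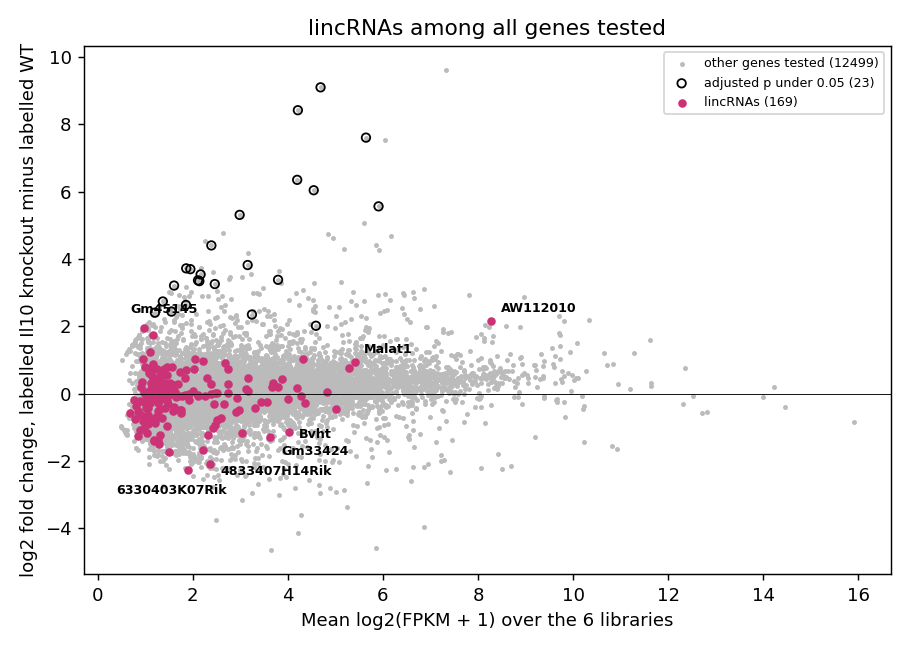
Mean log2(FPKM + 1) over the 6 libraries (horizontal) against the log2 fold change of libraries labelled Il10 knockout over those labelled WT (vertical), 1 point a gene, with lincRNAs in colour and genes with a limma adjusted p under 0.05 circled. None of the 169 lincRNAs is circled; AW112010 stands alone among them at high level.

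The spread among the libraries labelled WT was wide. The SD of log2(FPKM + 1) was 0.636 within the WT label and 0.357 within the knockout label at the median lincRNA, and it was larger within WT for 131 of 169 (77.5%). Over all genes tested the medians were 0.478 and 0.248 and the share was 78.6%. A fit in which limma gives each library its own weight, so that WT-labelled libraries 2 and 3 count less, called 4 lincRNAs beside 331 genes (2.61%). They were Gm45145, Gm20442 and 1810044D09Rik, higher, and 6330403K07Rik, lower. All of these except 1810044D09Rik had a mean under 1 FPKM in the label where they were low, so they passed the minimum only through the other label and a difference is built into these calls.

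AW112010 was by far the most abundant lincRNA. It is an interferon- and endotoxin-inducible RNA of immune cells, annotated as noncoding although it has been reported to be translated from a start codon other than AUG. The gene lies on chromosome 19 at 11047617 to 11050566 on the minus strand (GRCm38), 16905 bases from Ms4a8a. The first 150 bases of its transcript AW112010-201 in GENCODE M21, which has the gene length of the deposited table, are shown because they hold the core of the interferon-stimulated response element, GAAA and again GAAA with 2 bases of any kind between, in capitals at bases 86 to 95.

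AW112010-201, bases 1 to 150: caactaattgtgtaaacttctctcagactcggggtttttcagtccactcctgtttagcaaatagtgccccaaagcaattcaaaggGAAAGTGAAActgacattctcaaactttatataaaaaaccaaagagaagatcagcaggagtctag

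This stretch was searched after the sequence had been seen. Searched on both strands, the same letters occur in the first 150 bases of 1.43% of 135671 M21 transcripts and of 5 of 342 transcripts of the expressed lincRNAs. In RefSeq promoter windows (GRCm38.p6, 250 bases before to 50 after the start), which matched 92 of the 169 lincRNAs with 132 windows, that core was found in 4 windows (3.03%) beside 3.44% of 32851 windows of all genes. The palindromic TTCNNNGAA, the form bound by STAT proteins, was found in 9 (6.82%) beside 8.30%. The AW112010 window held neither. A match is a description of letters, not a site.

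AW112010 reached 478.5, 101.8 and 63.5 FPKM in WT-labelled libraries 1 to 3 and 567.1, 934.8 and 537.2 FPKM in knockout-labelled libraries 1 to 3. The labels did not overlap, but WT-labelled library 1 lay close below the lowest knockout-labelled value and the other WT-labelled libraries lay far below it. The log2 fold change was 2.16 with a standard error of 0.76 and a limma adjusted p of 0.441. Without WT-labelled libraries 2 and 3, a choice made after seeing the data, it was 0.46, and without WT-labelled library 1 it was 3.02 with a limma adjusted p of 0.118. Summed T and NK cell markers, 11 genes, had a like order among the WT-labelled libraries, at 111, 45.8 and 18.7 FPKM against 72.5 to 96.3, and so did 9 B and plasma cell markers at 3773, 358 and 188 FPKM against 1283 to 5197. Over 10 macrophage and monocyte markers the sums were 451, 160 and 252 FPKM against 273 to 586, and over 11 neutrophil markers 172, 2.65 and 36.7 against 1085 to 1965, with S100a9, Retnlg, Cxcr2 and Mmp8 at 0 in every WT-labelled library. The 16 interferon response genes, in contrast, summed to 823, 1991 and 599 FPKM against 610 to 899. The part of these cells in the AW112010 values was not tested.

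AW112010 held a large and uneven part of the lincRNAs' summed level. The 169 made up 0.298%, 0.201% and 0.165% of summed FPKM in WT-labelled libraries 1 to 3 and 0.214%, 0.390% and 0.304% in knockout-labelled libraries 1 to 3. The means were 0.221% ± 0.069 (SD, n = 3) and 0.302% ± 0.088 (SD, n = 3), and the values overlapped. With mitochondrial genes left out of the sum, the shares were 0.436%, 0.250% and 0.424% in the libraries labelled WT and 0.324%, 0.462% and 0.412% in those labelled knockout, and WT-labelled library 3 moved from the lowest of the 6 values to the third highest. AW112010 held 39.5%, 9.32% and 6.51% of the lincRNAs' FPKM in the libraries labelled WT and 45.1%, 58.0% and 41.3% in those labelled knockout. Without it the lincRNAs summed to 732, 990 and 913 FPKM against 689, 678 and 763, so that each WT-labelled sum but that of library 1 lay above every knockout-labelled one.

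**Figure D2:**
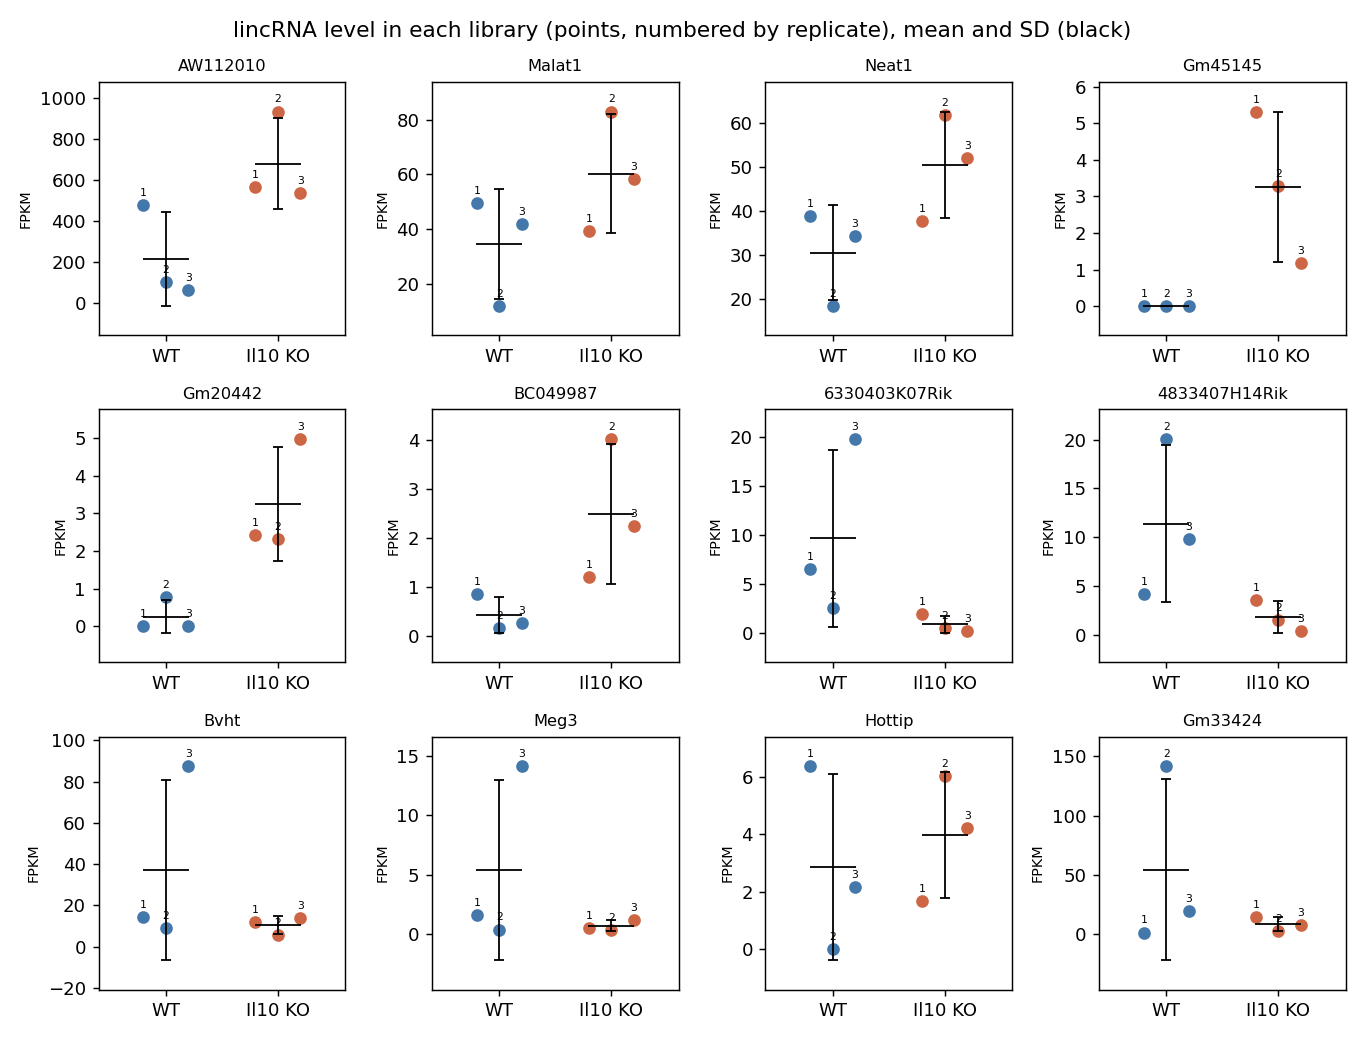
FPKM of 12 lincRNAs in each library (points, numbered by replicate, WT-labelled in blue and Il10-knockout-labelled in orange) with the mean and SD of 3 libraries in black; each panel has its own linear axis. Single WT-labelled libraries set the mean of Bvht, Meg3 and Gm33424, while Gm45145 is at 0 in all WT-labelled libraries.

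Next in abundance came the nuclear RNAs Malat1 and Neat1, which neighbour each other on chromosome 19. Malat1, a long RNA of nuclear speckles, where splicing factors gather, was at 49.8, 12.02 and 42.0 FPKM in the libraries labelled WT and at 39.5, 82.9 and 58.4 FPKM in those labelled knockout. Neat1, the scaffold of paraspeckles, was at 38.8, 18.3 and 34.3 FPKM against 37.6, 61.7 and 52.0 FPKM. Both were lowest in WT-labelled library 2 and highest in knockout-labelled library 2, and the labels overlapped. Their log2 fold changes were 0.94 (limma adjusted p 0.633) and 0.75 (limma adjusted p 0.557); without WT-labelled libraries 2 and 3 they were 0.21 and 0.34. The coding genes of the same bodies had smaller log2 fold changes at the median. Of 14 paraspeckle protein genes tested, 11 had a positive and 3 a negative log2 fold change with a median of 0.18 and 0 calls, and of 12 nuclear speckle and splicing genes, 10 were positive and 2 negative with a median of 0.13 and 0 calls. Over all genes tested, 54.1% were positive. The third nuclear architecture lincRNA, 1700020I14Rik, which RefSeq names Oip5os1 and which is also known as Cyrano, a regulator of microRNA turnover, held at 12.4, 9.90 and 13.8 FPKM against 10.8, 9.15 and 9.84 FPKM. 2900097C17Rik, a synonym of Norad, an RNA that binds Pumilio proteins, held at 8.71, 12.5 and 11.4 FPKM against 6.67, 11.1 and 9.32 FPKM. In both the labels overlapped.

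Immune-related lncRNAs leaned one way without a call. Of 22 on the list, 9 were tested and all 9 had a positive log2 fold change, beside 54.1% of all genes tested. An unadjusted limma p under 0.05 was reached by 3 of them, beside 10.2% of all genes, and 0 passed the limma threshold. The 3 were AW112010 and 2 genes of the biotype antisense, Gm16685 and A530040E14Rik. Gm16685 and Gm20186, which are among the 9, had a WT-labelled mean under 1 FPKM. They passed the minimum only through the knockout label, so a difference is built into them. Of the 9, 6 are lincRNAs by the biotype used here, with a median log2 fold change of 0.73 beside 0.04 over all genes; the list also holds Malat1 and Neat1. Gm28875 was at 6.88, 2.48 and 4.03 FPKM against 7.46, 9.15 and 6.24 FPKM (log2 fold change 0.72, limma adjusted p 0.519). Mir142hg and Gm20186 are described below. WT-labelled library 2 was the lowest for 7 of the 9, and for 4 of the 6 lincRNAs. Without WT-labelled libraries 2 and 3 the median of the 6 was 0.28.

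Among lincRNAs whose labels did not overlap, the largest positive differences after AW112010 rested on few reads. Gm45145 (chromosome 6, 82896867 to 82905214, minus strand, beside Sema4f) had 0 reads in the 3 libraries labelled WT and 69, 53 and 20 reads, or 5.31, 3.28 and 1.19 FPKM, in those labelled knockout. Taking 3 reads for the whole WT-labelled group as the floor, it was at least 44.8-fold higher, and the limma adjusted p was 0.183. Gm20442 (chromosome 17, 35743323 to 35764191, minus strand) had 5 reads in the WT-labelled libraries, all in library 2, and 73 in the knockout-labelled ones, at 0, 0.770 and 0 FPKM against 2.42, 2.33 and 4.99 FPKM. Its log2 fold change on the log2(FPKM + 1) scale was 1.75 with a limma adjusted p of 0.185. BC049987 was at 0.852, 0.156 and 0.266 FPKM against 1.20, 4.02 and 2.24 FPKM, with a log2 fold change of 1.24. None of these has a function that is well established. 1810044D09Rik was at 1.27, 3.74 and 2.39 FPKM against 4.08, 5.10 and 7.82 FPKM, with a log2 fold change of 0.97 and a limma adjusted p of 0.444. In each of these 4 genes every knockout-labelled library lay above every WT-labelled one, as the choice by non-overlap requires. Gm45145, Gm20442 and BC049987 had a WT-labelled mean under 1 FPKM (0 to 0.42). They passed the minimum only through the knockout label, so a difference is built into them.

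Also separated in the same direction were 1810063I02Rik, Gm17619, Gm29367, C920006O11Rik and 4833418N02Rik, with log2 fold changes of 0.80, 0.79, 0.77, 0.73 and 0.66. Gm20186, on the immune list, was separated as well, at 0.649, 0.721 and 0.737 FPKM against 1.21, 1.09 and 2.92 FPKM, or a log2 fold change of 0.63. Of these, 1810063I02Rik rested on 6 and 21 reads per label. All of them but Gm17619 had a WT-labelled mean under 1 FPKM (0.53 to 0.83). They passed the minimum only through the knockout label, so a difference is built into them. AU020206, the ninth in abundance, was at 28.6, 6.79 and 10.6 FPKM against 23.7, 26.9 and 32.3 FPKM; its labels overlapped, and its log2 fold change of 1.03 became -0.06 without WT-labelled libraries 2 and 3.

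**Figure D3:**
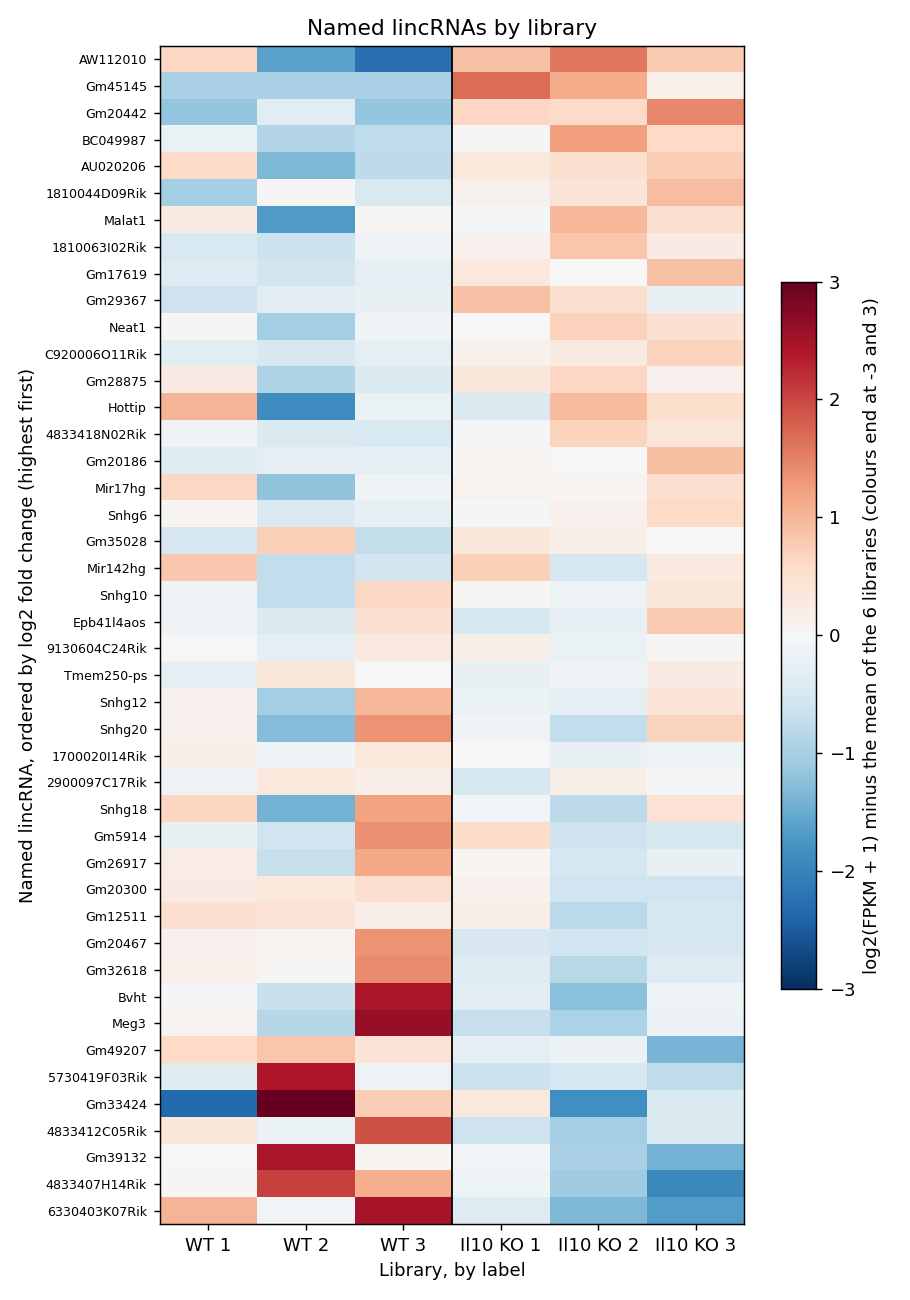
Log2(FPKM + 1) of 44 lincRNAs (rows) in each library (columns, by label) as the difference from the row's mean over 6 libraries, ordered by log2 fold change, with red above and blue below the mean. The darkest cells lie in WT-labelled libraries 2 and 3: Gm33424, 5730419F03Rik and Gm39132 in library 2, and Meg3, Bvht and 6330403K07Rik in library 3.

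On the negative side, 2 lincRNAs differed by more than 2 on the log2 scale. 6330403K07Rik (chromosome 11, 71031941 to 71033513, minus strand), on the neural list, was at 6.55, 2.53 and 19.8 FPKM in the libraries labelled WT and at 1.86, 0.468 and 0.164 FPKM in those labelled knockout. The labels did not overlap, the log2 fold change was -2.28 with a standard error of 0.66, and the limma adjusted p was 0.354. Its knockout-labelled mean was 0.829 FPKM, so it passed the minimum only through the WT label and a difference is built in. 4833407H14Rik, on the plus strand of chromosome 19 from 53460631 to 53462723, had levels of 4.21, 20.1 and 9.80 FPKM against 3.57, 1.46 and 0.330 FPKM, with a log2 fold change of -2.10, a standard error of 0.62 and a limma adjusted p of 0.356. The 2 genes peaked in different WT-labelled libraries, the first in library 3 and the second in library 2.

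Of the 17 separated lincRNAs with lower values under the knockout label, the next after these were Gm39132 (log2 fold change -1.67), 4833412C05Rik (-1.37), 5730419F03Rik (-1.27), Gm49207 (-1.22), Gm32618 (-1.08), Gm20467 (-1.04), Gm12511 (-0.75) and Gm20300 (-0.71), all with limma adjusted p of 0.360 or more. Of these, 4833412C05Rik, 5730419F03Rik, Gm32618, Gm20467 and Gm12511 had a knockout-labelled mean under 1 FPKM (0.16 to 0.74). They passed the minimum only through the WT label, so a difference is built into them. Gm20300 was at 6.12, 6.56 and 7.58 FPKM against 5.60, 2.995 and 2.995 FPKM, and Gm49207 at 6.44, 7.87 and 5.55 FPKM against 3.12, 3.42 and 0.879 FPKM. Gm49207 rested on 78 WT-labelled and 30 knockout-labelled reads, with 4 reads in knockout-labelled library 3. Without that library its log2 fold change was -0.82. Gm20300 and Gm49207 varied little among the libraries labelled WT. Gm39132, in contrast, was at 3.61, 24.2 and 3.79 FPKM against 3.32, 1.33 and 0.715 FPKM, and 5730419F03Rik at 0.385, 8.58 and 0.629 FPKM against 0.151, 0.274 and 0.0586 FPKM, so WT-labelled library 2 set the WT-labelled mean. Without that library their log2 fold changes were -0.86 and -0.38. 4833412C05Rik, Gm32618 and Gm20467 were highest in WT-labelled library 3, and without it they had log2 fold changes of -0.77, -0.63 and -0.62.

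Some lincRNAs were high in 1 library only. In WT-labelled library 2, 11 lincRNAs (6.51%) were at least 4-fold above every other library, beside 1.11% of all genes tested. They were Gm33424, 9130204K15Rik, 3100003L05Rik, Gm39132, 5730437C11Rik, Gm30692, 1700003I22Rik, Gm44507, 5730419F03Rik, Gm12596 and Gm30806. A gene faint elsewhere can pass the minimum through 1 library alone, as 5730419F03Rik did, so part of this share is built in. LincRNAs lay nearer the minimum (median mean FPKM 1.99 beside 5.37 for all genes tested), so the 2 shares are not on equal terms. Gm33424 was at 1.45, 142 and 19.6 FPKM in the libraries labelled WT and at 14.5, 2.47 and 8.11 FPKM in those labelled knockout; its log2 fold change of -1.29 became 0.15 without WT-labelled library 2. 9130204K15Rik was at 63.4 FPKM in that library and at 1.09 to 7.86 FPKM elsewhere, and 3100003L05Rik at 45.1 FPKM, on 395 reads, beside 0 to 2.03 FPKM. Knockout-labelled library 1, which had the second-highest sum over the 13 epithelial markers, was second for 9130204K15Rik, 3100003L05Rik and Gm44507 and not for the other 8. The part of epithelial content in these values was not tested.

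WT-labelled library 3 had 7 such lincRNAs (4.14% beside 2.08% of all genes): Bvht, Meg3, Gm12688, Gm41349, Gm17501, AI838599 and Gm48898. The limit that the minimum sets on such shares holds here too. Bvht (Braveheart), known from the cardiac lineage and transcribed near the miR-143 and miR-145 genes of smooth muscle, was at 14.5, 9.10 and 87.7 FPKM against 11.8, 5.73 and 13.8 FPKM. Meg3, the maternally expressed RNA of the imprinted Dlk1 region, was at 1.63, 0.377 and 14.2 FPKM against 0.534, 0.299 and 1.20 FPKM. Their log2 fold changes were -1.15 and -1.22, and -0.21 and -0.22 without WT-labelled library 3. The 4 imprinted lncRNAs tested, Meg3, Rian, Peg13 and Airn, were all highest in that library, as were the 5 tested of the neural list, which are 6330403K07Rik, Snhg11 and the first 3 of those, and all of them had negative log2 fold changes with 0 calls. Over all genes tested, 23.0% were highest in that library and 54.1% had a positive log2 fold change. Of these imprinted and neural lncRNAs, all but Peg13 had a knockout-labelled mean under 1 FPKM. They passed the minimum only through the WT label, so a difference is built into them. Their counts are therefore not on equal terms with those of all genes. Beside smooth muscle, 15 neuron and glia markers summed to 106, 57.0 and 394 FPKM against 14.4 to 61.4, with 14 of 15 highest in WT-labelled library 3, and 8 fibroblast markers to 163, 89.9 and 381 FPKM against 74.8 to 121. The part of these cell types was not tested. No other library had a lincRNA at least 4-fold above the rest.

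WT-labelled library 2 was also the library in which lincRNAs were most often at their lowest. It held the lowest value of 60 lincRNAs (35.5%), beside 24.4% of all genes tested, and the highest of 44 (26.0% beside 29.9%). WT-labelled library 3 held the lowest of 25 (14.8% beside 28.5%) and the highest of 38 (22.5% beside 23.0%). Reads on the 169 lincRNAs numbered 45925, 23581 and 36539 in the libraries labelled WT and 32849, 56876 and 51174 in those labelled knockout, or 0.149% of all recovered reads in WT-labelled library 2 and 0.230% to 0.388% in the others.

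**Figure D4:**
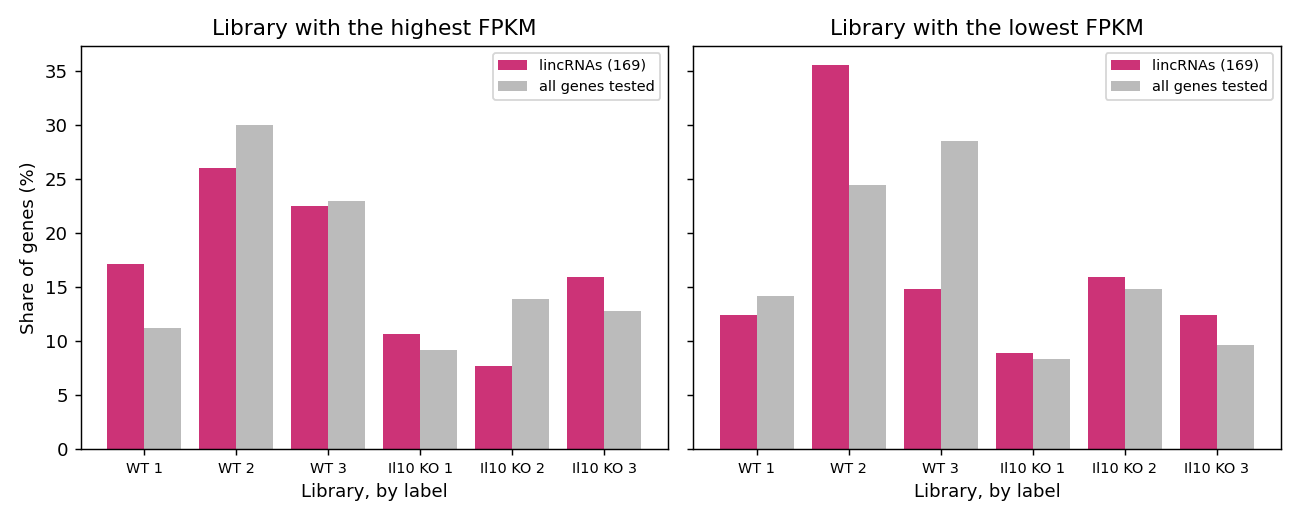
Share of the 169 lincRNAs (colour) and of all 12668 genes tested (grey) whose highest FPKM (left) or lowest FPKM (right) fell in each library, in percent. WT-labelled library 2 held the lowest value of 35.5% of lincRNAs and of 24.4% of all genes.

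Precursors of small RNAs shared this lowest position with genes of other lists. By the deposited coordinates and biotypes, 14 of the 169 lincRNAs enclose annotated small RNA genes, 8 with small nucleolar or Cajal body RNAs, which guide modification of ribosomal and spliceosomal RNA, and 9 with microRNAs. Of the snoRNA host list, 18 were tested, 13 with a positive and 5 with a negative log2 fold change, beside 54.1% positive among all genes tested. Rian and Snhg11, both negative, passed the minimum only through the WT label, so a difference is built into them. None of the 18 was called, and 13 of 18 were lowest in WT-labelled library 2. That count was 10 of 12 for nuclear speckle and splicing genes, 7 of 9 for immune-related lncRNAs and 4 of 5 for microRNA hosts. It was 5 of 14 for paraspeckle protein genes and 0 of 5 for the neural list, beside 24.4% of all genes tested. Among the 6 of the snoRNA host list that are lincRNAs by biotype, 5 were lowest in that library and 3 had a positive log2 fold change, with a median of -0.01. Snhg18 was at 31.2, 6.73 and 46.4 FPKM against 18.3, 11.0 and 27.1 FPKM, and Snhg20 at 7.40, 2.11 and 18.5 FPKM against 6.07, 3.57 and 11.2 FPKM. Snhg6 was at 14.3, 9.85 and 11.1 FPKM against 13.1, 15.04 and 21.3 FPKM, with a log2 fold change of 0.44 and a limma adjusted p of 0.642. Epb41l4aos was at 25.4, 19.9 and 37.6 FPKM against 19.3, 22.6 and 47.8 FPKM, with a log2 fold change of 0.05. Snhg12 and Snhg10, fainter, had log2 fold changes of -0.07 and 0.16. In each the labels overlapped. The log2 fold changes of Snhg18, Snhg20 and Snhg12 were positive without WT-labelled library 3, at 0.24, 0.52 and 0.40.

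Mir142hg and Mir17hg carry the best-known microRNAs among the 14 hosts. miR-142 is made almost only in blood cells, and the miR-17 to miR-92a cluster promotes proliferation and survival of lymphocytes. Their mature sequences from RefSeq (GRCm38.p6) are shown because the host level stands for precursor RNA only; the seed, bases 2 to 8, is in capitals. Mir142 lies on chromosome 11, at 87756867 to 87756887 for its 5p arm, and the 6 genes of the cluster lie on chromosome 14, from 115043684 to 115044496, all on the plus strand.

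mmu-miR-142a-5p: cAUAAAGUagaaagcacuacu

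mmu-miR-142a-3p: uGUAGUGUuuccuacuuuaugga

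mmu-miR-17-5p: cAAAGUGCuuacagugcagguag

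mmu-miR-20a-5p: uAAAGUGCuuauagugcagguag

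mmu-miR-18a-5p: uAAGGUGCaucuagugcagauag

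mmu-miR-19a-3p: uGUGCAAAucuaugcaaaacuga

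mmu-miR-19b-3p: uGUGCAAAuccaugcaaaacuga

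mmu-miR-92a-3p: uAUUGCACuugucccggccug

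Within the cluster, miR-17-5p and miR-20a-5p share the seed AAAGUGC and miR-19a-3p and miR-19b-3p share GUGCAAA, while miR-18a-5p and miR-92a-3p have seeds of their own, so this 1 host stands for 4 seed groups. Mir142hg was at 21.4, 6.76 and 7.77 FPKM against 20.0, 8.04 and 14.8 FPKM, with a log2 fold change of 0.33 and a limma adjusted p of 0.864. Its highest libraries were number 1 of each label, the libraries that also had the highest B and plasma cell sums, whose part was not tested. Mir17hg was at 4.50, 0.557 and 2.32 FPKM against 2.89, 2.81 and 4.06 FPKM, on 26 reads in WT-labelled library 2, with a log2 fold change of 0.47 and a limma adjusted p of 0.777. Both log2 fold changes were negative without WT-labelled libraries 2 and 3, at -0.64 and -0.38. All 5 microRNA host lncRNAs tested had a positive log2 fold change, beside 54.1% of all genes tested, and 0 were called. The 5 include Gm16685, which the immune list also holds. It passed the minimum only through the knockout label, so a difference is built into it. Libraries of this kind do not count mature microRNAs.

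Gm26917 lies at a ribosomal RNA-related locus, from 39843013 to 39846341 on chromosome 17. Its levels were 36.9, 18.9 and 70.3 FPKM against 32.8, 21.5 and 26.7 FPKM (log2 fold change -0.45, limma adjusted p 0.804). The other gene of that list tested, CT010467.1, was at 743, 1110 and 542 FPKM against 1135, 1253 and 1158 FPKM; the 2 had opposite orders among the WT-labelled libraries. Hottip, transcribed from the 5′ end of the HoxA cluster and a marker of distal position, was at 6.39, 0 and 2.18 FPKM against 1.68, 6.05 and 4.22 FPKM. It had 297 reads in WT-labelled library 1 and 0 in WT-labelled library 2. Its neighbour Hoxa13, the most posterior HoxA gene, was at 15.6, 1.16 and 11.0 FPKM against 11.7, 24.2 and 21.8 FPKM, lowest in the same library. The sources used here name whole colons and give no finer position for any library. The part of position in these values was not tested. Tmem250-ps, a pseudogene transcript in the 10 most abundant, was at 15.1, 24.1 and 18.4 FPKM against 15.8, 16.8 and 22.2 FPKM.

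Differences of lincRNAs and of their nearest protein-coding genes had the same sign more often than not. The nearest coding gene was itself tested for 121 of the 169, and both had the same sign for 77 (63.6%), with Pearson's r of 0.449 and Spearman's rho of 0.377 across the 121 pairs. This is a description: both members of a pair come from the same libraries, and genes are not independent replicates. No share for unrelated gene pairs was set beside these values, and the pairs include lincRNAs into which a difference is built. For 27 pairs whose starts lie within 1 kb on opposite strands, the arrangement of a shared promoter region, 19 (70.4%) had the same sign and r was 0.490. In some of these pairs the exons overlap, and with the strand setting unknown their reads cannot be assigned to one strand. For 44 lincRNAs more than 10 kb from the coding gene, 24 (54.5%) had the same sign and r was 0.448. None of the neighbours was called.

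Single pairs show the kinds of neighbour. AW112010 lies near Ms4a8a, a membrane protein gene, which was at 261, 236 and 98.4 FPKM against 640, 547 and 429 FPKM. Gm29367 (log2 fold change 0.77) starts 787 bases from Efhd2, a calcium-binding protein gene of lymphocytes, which was at 95.3, 144 and 61.7 FPKM against 229, 273 and 198 FPKM; both genes were separated in the same direction. Gm20186 starts 372 bases from Lsm8 (0.79), which encodes a subunit of the U6 snRNA-binding ring, and 4833418N02Rik 72 bases from Ttc7 (0.79). Gm15675 (0.74) lies near Cd55 (1.72), an inhibitor of complement. 5730437C11Rik (-1.74) lies near Hao2 (-2.79), a hydroxyacid oxidase, and both were highest in WT-labelled library 2. Gm20467 lies 1700 bases from Nkx2-3, a homeobox gene of gut mesenchyme; the lincRNA was at 1.12, 1.07 and 3.97 FPKM against 0.399, 0.320 and 0.370 FPKM and Nkx2-3 at 8.95, 8.43 and 16.2 FPKM against 6.83, 4.76 and 7.52 FPKM. Gm12688 (-1.38) lies near Foxd3 (-1.08), a neural crest factor, with both highest in WT-labelled library 3. Gm29367, Gm20186 and 4833418N02Rik passed the minimum only through the knockout label, and 5730437C11Rik, Gm20467 and Gm12688 only through the WT label. A difference is thus built into these lincRNAs.

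Some pairs had opposite signs. Gm17501, 331 bases from Cyr61, had a log2 fold change of -0.82 where Cyr61, a matricellular protein gene, had 0.88. Gm17501 passed the minimum only through the WT label, so a difference is built into it. Gm10522 had -1.03 beside Fcgr2b, the inhibitory Fc receptor, at 1.12. Other pairs shared a sign but not a size: E130102H24Rik, which encloses Mir101a, had 0.57, while Ak4, a mitochondrial adenylate kinase gene 62542 bases away, was at 1.99, 2.90 and 3.60 FPKM against 64.0, 33.9 and 14.96 FPKM, with a log2 fold change of 3.13 and a limma adjusted p of 0.093.

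**Figure D5:**
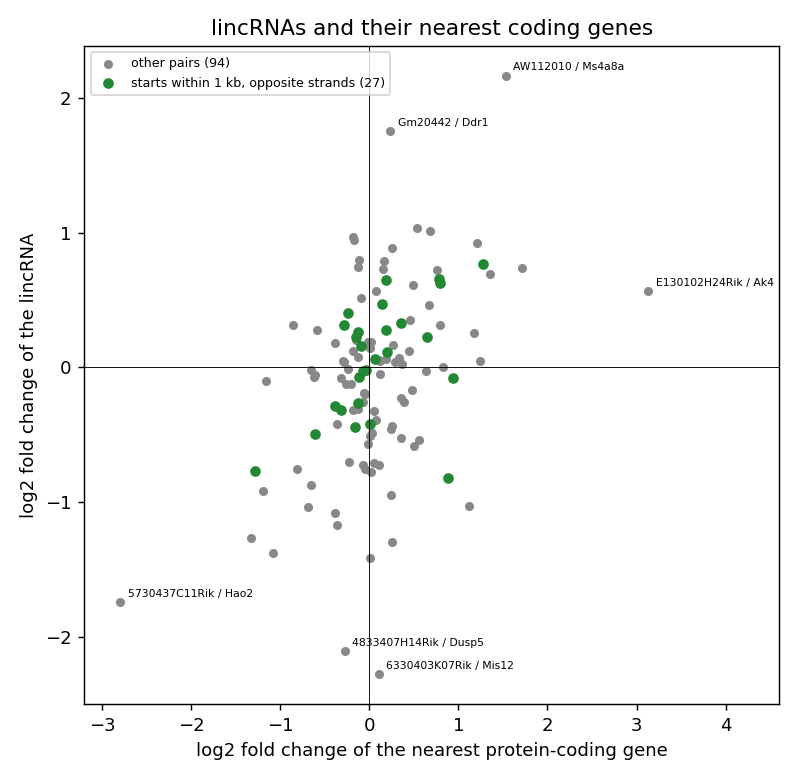
Log2 fold change of the nearest tested protein-coding gene (horizontal) against that of the lincRNA (vertical) for 121 pairs, with the 27 pairs that start within 1 kb on opposite strands in green. Of all pairs 77 lie in the lower left and upper right quadrants.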

How the data were processed

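Per the file headers, the authors deposited FPKM values beside each gene's biotype, length and coordinates. The kit was NEBNext Ultra, used on total RNA, per the labels' protocols. Bowtie 0.12.2 and the builds mm8 and hg38 are named in the submitters' processing notes, which give them no role; 164 of the 169 lincRNAs have the coordinates of GENCODE M21, so GRCm38 is used. Multiplied by gene length, 100% of values above 0 were whole multiples of 1 step per library (tolerance 0.01), which gave recovered reads; floors cover counting error only.

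Values were tested as log2(FPKM + 1), which understates the change of low genes, with limma 3.58.1 in R 4.3.3 (eBayes with trend, no block, Benjamini-Hochberg, threshold 0.05) on 12668 genes whose FPKM averaged 1 or more; the script was tested on simulated data. Python 3.11.15, pandas 2.3.3 and matplotlib 3.10.9 made tables and figures. Members, marker lists and lncRNA lists were chosen with earlier results of these data known. Named were lincRNAs past the threshold (none), the 10 highest and 10 lowest log2 fold changes among those whose labels did not overlap, the 10 most abundant, list members and those nearest the minimum; other lincRNAs and pairs were chosen after their values were seen. Alternatives were other pseudocounts, filters and scalings, TPM, eBayes settings, weights, a replicate block, voom and leaving out each library. Correlations of deviations between libraries of the same number were -0.149, 0.180 and 0.396, so numbers were not taken as pairs.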

Additional observations from a re-analysis of the deposited data

How the results depend on the processing

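The count of 23 genes called among all genes was 9 with a pseudocount of 0.01, 4 without a filter, 46 in TPM, 331 with a weight per library, 2 with voom on recovered reads, and 4 to 29 when each library was left out (12 without WT-labelled library 1, 5 without WT-labelled library 3, 4 and 7 without knockout-labelled libraries 2 and 3). With the replicate block it was 7, and the block changed no call among the lincRNAs. Calls among the lincRNAs were 4 with the weights and 0 in every other setting run. The median log2 fold change of the lincRNAs was -0.17 over those that average 5 FPKM or more and -0.18 with sums without mitochondrial genes, a scaling that moved the median of all genes by -0.17; TPM moved it by 0.11. Without mitochondrial genes in the sum, the lincRNA share was 0.370% for WT-labelled and 0.399% for knockout-labelled libraries. Over the 900 pairs of a named lincRNA and an alternative that gave a value, 29 of 44 lincRNAs kept the direction of their log2 fold change and 15 reversed it in at least 1 (lincRNAs averaging under 5 FPKM have no value under the filter at 5 FPKM), with no call lost or gained by a reversal.

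The reversed log2 fold changes were these. With a pseudocount of 0.1 the value was 0.013 for 9130604C24Rik. With a pseudocount of 0.01 the value was 0.018 for 9130604C24Rik. Quantile normalization gave -0.16 for Epb41l4aos and 0.030 for 9130604C24Rik. TPM gave 0.044 for Snhg12, 0.047 for Tmem250-ps and 0.068 for 9130604C24Rik. Sums without mitochondrial genes gave -0.15 for Epb41l4aos and -0.027 for Snhg10. Weights per library gave -0.14 for Hottip, -0.56 for Mir142hg, 0.16 for Tmem250-ps, -0.20 for Mir17hg, 0.044 for 2900097C17Rik and 0.58 for Gm33424. Voom on recovered reads gave 0.0032 for 9130604C24Rik. Leaving out WT-labelled libraries 2 and 3, chosen after seeing the data, gave -0.68 for Hottip, -0.64 for Mir142hg, 0.24 for Tmem250-ps, -0.38 for Mir17hg, -0.061 for AU020206, 0.040 for Gm5914, 0.020 for 2900097C17Rik, 0.012 for 9130604C24Rik and 1.69 for Gm33424. That last fit keeps 1 WT-labelled library, which is assumed to vary like the others. When each library was left out in turn, the log2 fold changes of these 15 lincRNAs ranged from -0.40 to -0.073 for 2900097C17Rik, from -0.15 to 0.15 for 9130604C24Rik, from 0.62 to 1.58 for AU020206, from -0.34 to 0.29 for Epb41l4aos, from -0.91 to 0.0068 for Gm26917, from -2.78 to 0.15 for Gm33424, from -0.76 to 0.23 for Gm5914, from -0.069 to 1.37 for Hottip, from 0.042 to 0.81 for Mir142hg, from -0.020 to 0.89 for Mir17hg, from -0.17 to 0.51 for Snhg10, from -0.59 to 0.40 for Snhg12, from -1.06 to 0.24 for Snhg18, from -0.80 to 0.52 for Snhg20 and from -0.21 to 0.11 for Tmem250-ps. The cause of these reversals was not tested. Depth limits the faint lincRNAs: 86 have a mean FPKM under 2, and 1810063I02Rik rests on 6 and 21 reads per label.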
